A study of Mus musculus with 16 samples.

Results

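NRF2, the product of Nfe2l2, is a transcription factor that switches on genes for the disposal of oxidants and electrophiles. The 10 genes described here are 8 of its well-known targets and 2 regulators: Hmox1 for haem breakdown, Slc7a11 for cystine uptake, Gclc and Gclm for glutathione synthesis, Txnrd1 and Srxn1 for thioredoxin and peroxiredoxin repair, Nqo1 for quinone reduction, Osgin1, Nfe2l2 itself and Keap1. They were chosen by symbol from knowledge of the pathway, with earlier results of these data already known. Shares of the 10, or of the gene lists given later, set beside those of all genes are therefore descriptions. All 10 matched 1 Ensembl identifier among 56980 in the count table, and all 10 passed the filter on low counts among 17972 genes tested.

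The RNA came from kidney cortex of male C57Bl/6J mice with floxed Degs1 alleles. Degs1 encodes dihydroceramide desaturase, which makes ceramide from dihydroceramide. The knockout mice (iGKO) also carried Rosa26-CreERT2, a tamoxifen-inducible Cre that is expressed in most tissues, so that the deletion was global; fl/fl littermates were the controls, and every group had received tamoxifen, 3 mg on 5 consecutive days at 9 weeks of age. At 12 weeks the mice underwent bilateral ischaemia-reperfusion injury (IRI), with 28 min of clamping and 24 h of reperfusion, or a sham operation, which gave 4 libraries each of iGKO IRI, fl/fl IRI, iGKO sham and fl/fl sham. A library is named by its group and replicate number.

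In unstressed cells KEAP1 holds NRF2 in the cytoplasm and hands it to a CUL3 ubiquitin ligase for destruction. Oxidants or electrophiles modify cysteines of KEAP1, NRF2 then accumulates, enters the nucleus with a small MAF protein and binds antioxidant response elements near its targets. Its activity is thus set largely at the protein level. In the kidney, reperfusion after ischaemia produces oxidants in tubule cells, and loss of NRF2 is known to worsen ischaemic kidney injury in mice. Several targets answer to other factors too: Slc7a11 is also a target of ATF4, the factor of the integrated stress response, and Hmox1 is held down by BACH1 until haem releases it.

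The start regions of these genes show where such elements can lie. RefSeq windows on build GRCm38.p6, from 250 bases before a start to 50 bases after it, were found for 8 of the 10 genes; Hmox1 and Gclc had none. The core of the antioxidant response element, TGACNNNGC read on both strands, occurred in 4 of the 10 windows of these 8 genes, of which Txnrd1 has 3, against 12.4% of 32851 windows of all genes. The 4 matches are shown 5′ to 3′ on the strand of the gene, with 10 bases on each side and the core in capitals; the last 3 have the core on the opposite strand, so that it reads as its reverse complement.
Nfe2l2 at chr2:75704885-75704913, minus strand: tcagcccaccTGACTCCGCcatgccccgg
Srxn1 at chr2:152105542-152105570, plus strand: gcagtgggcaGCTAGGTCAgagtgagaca
Gclm at chr3:122245413-122245441, plus strand: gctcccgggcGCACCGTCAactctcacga
Txnrd1 at chr10:82859104-82859132, plus strand: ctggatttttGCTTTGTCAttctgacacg
The Nfe2l2 core lay at bases -240 to -232 from the start, the Gclm core at -134 to -126, and the Txnrd1 core at -92 to -84 from the second of 3 annotated starts. The Srxn1 core lay after the start, at bases 29 to 37. No core was found in the windows of Slc7a11, Nqo1, Osgin1 and Keap1, which says only that these letters are not in the windows searched. Of the 4 genes with a core, Srxn1 and Txnrd1 were among those that rose after IRI and Gclm and Nfe2l2 were not.

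Total counts ranged from 12704273 to 18816343 a library. Levels are TMM-scaled CPM (counts-per-million), and differences are log2 fold changes from edgeR's quasi-likelihood test over all libraries, each ± its standard error (SE), with Benjamini-Hochberg adjustment of p across the 17972 genes and a threshold of 0.05. Degs1 RNA was at 54.5 ± 6.81 CPM in iGKO IRI and 113 ± 18.2 CPM in fl/fl IRI, and at 57.0 ± 14.3 CPM in iGKO sham and 100.3 ± 12.3 CPM in fl/fl sham (SD, n = 4 each), with an exact permutation p of 0.0286 for each pair, the smallest that 4 against 4 can give. A pair of libraries was singled out for separate fits. In fl/fl IRI 1 the summed level of 4 tubular injury markers (Havcr1, Lcn2, Krt20 and Sox9) was 171 CPM, against 1691 to 2620 CPM in fl/fl IRI 2 to 4, and in iGKO sham 4 mitochondrially encoded genes took 0.443% of counts, against 2.05% to 6.48% in the other 15. Results that turn on them are given with and without them. The choice of fl/fl IRI 1 rests on levels measured after the operation. The iGKO IRI libraries, with injury markers at 90.9 to 167 CPM, were all kept. Leaving fl/fl IRI 1 out raises the fl/fl IRI mean of Hmox1, Slc7a11, Gclc, Txnrd1, Srxn1, Nqo1 and Nfe2l2, in which it was lowest. Genotype differences that pass or grow without it are therefore not separate evidence.

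After IRI, 5 of the 10 genes rose in fl/fl kidneys: Slc7a11, Hmox1, Srxn1, Gclc and Txnrd1. None fell. Over all genes tested 8.46% rose and 7.01% fell in this comparison, and the median log2 fold change was 0.70 over the 10 genes and 0.01 over all genes. In iGKO kidneys none of the 10 passed the test, and neither did any other gene (0% of those tested). Set directly against fl/fl kidneys after IRI, iGKO kidneys had lower Hmox1 and Srxn1, 2 of the 10, where 0.673% of all genes were lower and 0.178% were higher.

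**Figure D1:**
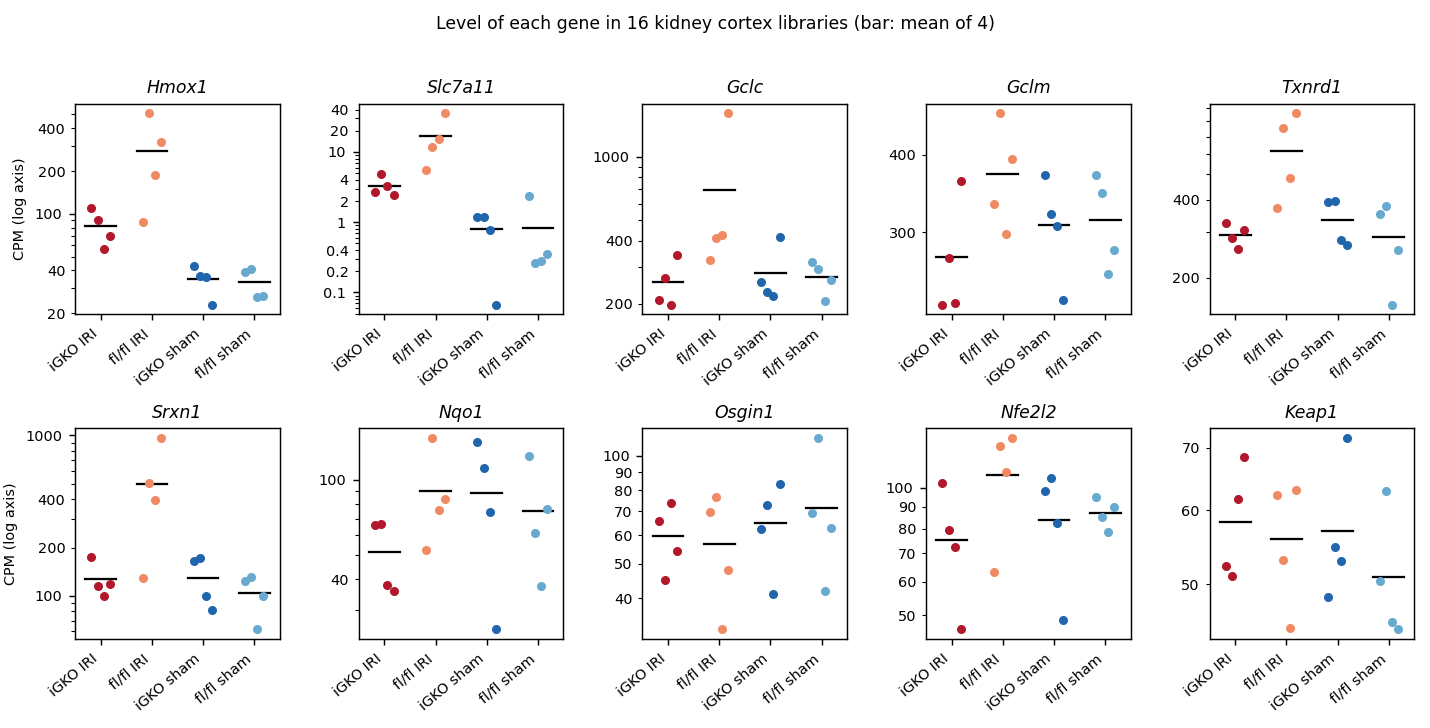
Level of each of the 10 genes in CPM (log axis, scaled for each gene) in iGKO IRI, fl/fl IRI, iGKO sham and fl/fl sham; points are libraries 1 to 4 from left to right and the bar is the mean. Slc7a11 and Hmox1 stand above sham in both IRI groups; Srxn1, Txnrd1 and Gclc stand above fl/fl sham in most fl/fl IRI libraries, and the 2 regulators and Osgin1 show group ranges that overlap throughout.

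Haem oxygenase 1, the product of Hmox1 (ENSMUSG00000005413), opens the haem ring and releases iron, carbon monoxide and biliverdin. Hmox1 stood at 109, 90.4, 56.4 and 70.1 CPM in iGKO IRI 1 to 4, against 87.4, 510, 186 and 321 CPM in fl/fl IRI 1 to 4. In the sham groups it stood at 43.2, 36.3, 35.9 and 23.0 CPM in iGKO and at 38.7, 40.7, 26.1 and 26.3 CPM in fl/fl. Each IRI group thus lay wholly above its own sham group, and the IRI groups met each other through fl/fl IRI 1, which was lower than 2 of the iGKO libraries. In fl/fl kidneys Hmox1 rose by 3.07 ± 0.41 after IRI (adjusted p = 0.000649), to a mean of 276 ± 183 CPM in fl/fl IRI, against 32.9 ± 7.83 CPM in fl/fl sham (SD, n = 4 each). In iGKO kidneys the difference was 1.24 ± 0.39, with an unadjusted p of 0.00564 and an adjusted p of 0.590 in edgeR, at 81.6 ± 23.2 CPM in iGKO IRI and 34.6 ± 8.42 CPM in iGKO sham (SD, n = 4 each).

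Hmox1 was lower in iGKO IRI than in fl/fl IRI by -1.76 ± 0.39 on the log2 scale (edgeR, adjusted p = 0.0477). This call sat close to the threshold. It was lost when any 1 of 14 libraries was left out, with adjusted p up to 0.165, and kept without fl/fl IRI 1 (-2.05, adjusted p = 0.000752) or without iGKO sham 4. It was also lost with RLE scaling (0.0532), with a replicate block (0.0791) and when the 2 groups were fitted alone (0.317), while the log2 value stayed between -2.05 and -1.28 over the left-out libraries. The CPM of bulk tissue does not tell fewer cells of a type from less RNA in each cell, here and in every result that follows.

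xCT, the product of Slc7a11 (ENSMUSG00000027737), is the light chain of the antiporter that imports cystine in exchange for glutamate and so feeds glutathione synthesis. Its RNA was scarce: 2.67, 4.87, 3.29 and 2.43 CPM in iGKO IRI 1 to 4, against 5.54, 11.7, 15.4 and 35.6 CPM in fl/fl IRI 1 to 4. The sham levels were 1.201, 1.18, 0.782 and 0.0674 CPM in iGKO and 2.37, 0.259, 0.280 and 0.349 CPM in fl/fl. All 4 libraries of fl/fl IRI lay above all 4 of iGKO IRI, and these above all 8 sham libraries, with the narrowest gap between iGKO IRI 4 at 2.43 CPM and fl/fl sham 1 at 2.37 CPM. These levels rest on 36 to 79 reads in iGKO IRI, 81 to 564 in fl/fl IRI, 1 to 19 in iGKO sham and 4 to 30 in fl/fl sham, so the sham values carry a large counting error.

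In fl/fl kidneys Slc7a11 rose by 4.42 ± 0.75 on the log2 scale after IRI (edgeR, adjusted p = 0.00205), the largest difference among the 10 genes. Leaving out fl/fl sham 1 moved this to 5.81 and leaving out fl/fl IRI 4 moved it to 3.77; the call held without any 1 of the 16 libraries. In iGKO kidneys the difference was 2.03 ± 0.72, with an unadjusted p of 0.0119 and an adjusted p of 0.641 in edgeR. Between iGKO IRI and fl/fl IRI it was -2.36 ± 0.66 (adjusted p = 0.0875), which missed the threshold although the ranges did not overlap. Without fl/fl IRI 1, the lowest of its group, it passed (adjusted p = 0.0132). Over all single left-out libraries its adjusted p ran up to 0.290.

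The region before the Slc7a11 start is shown because this gene had the largest difference and is a target of both NRF2 and ATF4. It holds the letters TGATGNAA, the core of the ATF4 response element searched on both strands, in 2 places that do not overlap. It is the only 1 of the 10 windows of the 8 genes with this core, which 3.97% of the 32851 windows hold. The 150 bases before the start, on the gene's strand, are given with both cores in capitals, the first at bases -66 to -59 and the second, on the opposite strand, at -47 to -40.
Slc7a11 at chr3:50443614-50443763, minus strand: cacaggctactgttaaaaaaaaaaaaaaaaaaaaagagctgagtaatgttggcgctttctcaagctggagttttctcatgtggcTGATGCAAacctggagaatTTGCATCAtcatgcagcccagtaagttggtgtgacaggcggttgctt
A match of letters is a description of the window and not a measured binding site.

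Gclc and Gclm encode the catalytic and the modifier subunit of glutamate-cysteine ligase, the enzyme of the first step of glutathione synthesis. Gclc (ENSMUSG00000032350) stood at 208, 264, 198 and 342 CPM in iGKO IRI, against 322, 409, 424 and 1615 CPM in fl/fl IRI, and at 254, 228, 218 and 418 CPM in iGKO sham, against 316, 292, 205 and 260 CPM in fl/fl sham. The single value of 1615 CPM in fl/fl IRI 4 was far above the other 15 libraries, which reached 424 CPM. Gclc was higher in fl/fl IRI than in fl/fl sham by 1.37 ± 0.41 (edgeR, adjusted p = 0.0350); without fl/fl IRI 4 the difference was 0.52 (adjusted p = 0.188). The call was also lost without fl/fl sham 1 (0.0621), 2 (0.0633), 3 (0.101) or 4 (0.0839).

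In iGKO kidneys Gclc differed by -0.14 ± 0.41 between IRI and sham (edgeR, adjusted p = 0.993). Between iGKO IRI and fl/fl IRI the difference was -1.45 ± 0.41 (adjusted p = 0.0931). It was -0.61 without fl/fl IRI 4 (0.327), and -1.69 without fl/fl IRI 1, where it passed (0.0117). Gclm (ENSMUSG00000028124) stood at 230, 272, 231 and 363 CPM in iGKO IRI, against 333, 467, 298 and 394 CPM in fl/fl IRI, and at 372, 321, 307 and 234 CPM in iGKO sham, against 371, 348, 257 and 281 CPM in fl/fl sham. All 4 groups of Gclm overlapped, and no comparison of it passed: IRI against sham gave -0.17 ± 0.20 in iGKO (adjusted p = 0.984) and 0.25 ± 0.20 in fl/fl (0.424), and iGKO against fl/fl after IRI gave -0.44 ± 0.20 (0.235). Scaled to the length of their exons, Gclc had 1.43 to 1.62 times the level of Gclm in iGKO IRI and 1.46 to 6.85 times in fl/fl IRI, with medians of 1.54 and 2.00. In the sham groups the ratio was 1.14, 1.19 and 1.18 in iGKO sham 1 to 3 and 2.99 in iGKO sham 4, against 1.34 to 1.55 in fl/fl sham, with medians of 1.19 and 1.41. All but iGKO sham 4 thus lay below the fl/fl sham libraries.

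Txnrd1 encodes cytosolic thioredoxin reductase, a selenoenzyme that returns thioredoxin to its reduced form at the cost of NADPH. Txnrd1 (ENSMUSG00000020250) stood at 325, 284, 259 and 306 CPM in iGKO IRI, against 372, 756, 485 and 861 CPM in fl/fl IRI, and at 392, 394, 280 and 267 CPM in iGKO sham, against 351, 379, 158 and 256 CPM in fl/fl sham. Every fl/fl IRI library was above every iGKO IRI library, and fl/fl IRI 1 at 372 CPM lay within both sham ranges. In fl/fl kidneys Txnrd1 rose by 1.11 ± 0.28 after IRI (edgeR, adjusted p = 0.0148), a call lost when the 2 groups were fitted alone (0.0589). In iGKO kidneys the difference was -0.18 ± 0.28 (adjusted p = 0.992). Between iGKO IRI and fl/fl IRI it was -1.08 ± 0.28 (adjusted p = 0.0690), and -1.26 without fl/fl IRI 1 (0.00619). Over all single left-out libraries its adjusted p ran up to 0.215.

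Srxn1 encodes sulfiredoxin, which repairs peroxiredoxins whose cysteine has been overoxidised. Srxn1 (ENSMUSG00000032802) stood at 175, 116, 99.8 and 118 CPM in iGKO IRI, against 128, 506, 397 and 965 CPM in fl/fl IRI, and at 164, 173, 100.3 and 81.3 CPM in iGKO sham, against 125, 132, 61.9 and 100.2 CPM in fl/fl sham. Here fl/fl IRI 1 was within the sham and iGKO IRI ranges, and the other fl/fl IRI libraries were above all the rest. In fl/fl kidneys Srxn1 rose by 2.25 ± 0.45 after IRI (edgeR, adjusted p = 0.00449), to 499 ± 349 CPM in fl/fl IRI, against 105 ± 31.5 CPM in fl/fl sham (SD, n = 4 each). In iGKO kidneys the difference was -0.03 ± 0.43 (adjusted p = 0.998), at 127 ± 32.7 CPM in iGKO IRI and 130 ± 45.7 CPM in iGKO sham. Srxn1 was lower in iGKO IRI than in fl/fl IRI by -1.97 ± 0.44 (adjusted p = 0.0479). That call, like that of Hmox1, was lost without any 1 of the same 14 libraries (adjusted p up to 0.165), with RLE scaling (0.0532), with a replicate block (0.0889) and with the 2 groups alone (0.317); without fl/fl IRI 1 it was -2.29 (0.000683).

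Nqo1 encodes a quinone reductase and is a textbook NRF2 target; it did not pass in any comparison. Nqo1 (ENSMUSG00000003849) stood at 65.9, 66.3, 38.0 and 35.9 CPM in iGKO IRI, against 52.3, 147, 75.9 and 84.1 CPM in fl/fl IRI, and at 142, 112, 74.5 and 25.2 CPM in iGKO sham, against 125, 61.4, 37.7 and 76.5 CPM in fl/fl sham. Libraries of 1 group differed by up to several fold, so the groups overlapped. In edgeR, IRI against sham gave -0.78 ± 0.45 in iGKO (adjusted p = 0.883) and 0.26 ± 0.45 in fl/fl (0.742), and iGKO against fl/fl after IRI gave -0.80 ± 0.45 (0.337). Osgin1 (ENSMUSG00000074063), which encodes an oxidative stress-induced growth inhibitor, ranged from 45.0 to 73.6 CPM in iGKO IRI, 32.8 to 76.5 CPM in fl/fl IRI, 41.2 to 83.3 CPM in iGKO sham and 41.9 to 112 CPM in fl/fl sham. All of its groups overlapped, with -0.12 ± 0.30 for IRI against sham in iGKO and -0.34 ± 0.30 in fl/fl (edgeR, adjusted p = 0.993 and 0.485).

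The regulators gave no call. Nfe2l2 (ENSMUSG00000015839) stood at 103, 79.3, 72.5 and 46.3 CPM in iGKO IRI, against 63.2, 125, 109 and 131 CPM in fl/fl IRI, and at 98.1, 106, 82.7 and 48.6 CPM in iGKO sham, against 95.1, 85.3, 78.4 and 90.1 CPM in fl/fl sham. Library fl/fl IRI 1 was the lowest of its group and the other fl/fl IRI libraries were above all 4 fl/fl sham libraries. IRI against sham gave -0.16 ± 0.26 in iGKO and 0.30 ± 0.26 in fl/fl (edgeR, adjusted p = 0.992 and 0.478), and iGKO against fl/fl after IRI gave -0.51 ± 0.26 (0.300). With fl/fl IRI 1 and iGKO sham 4 both left out, this last difference was -0.69 and passed (0.0235).

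Keap1 (ENSMUSG00000003308) had the smallest SEs of the 10 genes. It ranged from 50.9 to 68.4 CPM in iGKO IRI, 44.9 to 63.1 CPM in fl/fl IRI, 48.4 to 71.8 CPM in iGKO sham and 44.7 to 63.0 CPM in fl/fl sham. IRI against sham gave 0.03 ± 0.16 in iGKO and 0.13 ± 0.17 in fl/fl (edgeR, adjusted p = 0.997 and 0.627), and iGKO against fl/fl after IRI gave 0.06 ± 0.16 (0.860). RNA levels of both regulators say nothing of NRF2 protein, which was not measured here.

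**Figure D2:**
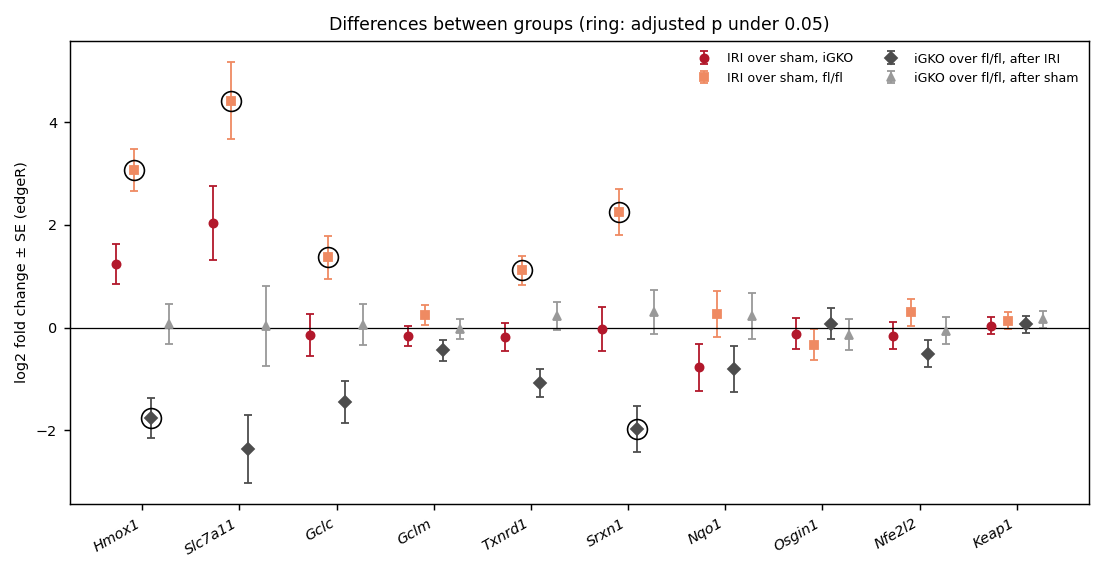
Log2 fold change ± SE of each gene in edgeR for IRI over sham in iGKO, IRI over sham in fl/fl, iGKO over fl/fl after IRI and iGKO over fl/fl after sham; a ring marks an adjusted p under 0.05. Rings lie on Hmox1, Slc7a11, Gclc, Txnrd1 and Srxn1 for IRI over sham in fl/fl and on Hmox1 and Srxn1 for iGKO over fl/fl after IRI.

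After sham, no difference between genotypes passed the test. None of the 10 passed for iGKO against fl/fl after sham in edgeR, with an adjusted p of 0.9999 for each and log2 values from -0.14 for Osgin1 to 0.31 for Srxn1; 0% of all genes passed, none of the 10 and 1.17% of all genes had an unadjusted p under 0.05, and DESeq2 called 0 of all genes. Degs1 itself, at -0.82 ± 0.18 with ranges that did not overlap, also had an adjusted p of 0.9999 in this test. The SE of the values of the 10 genes ran from 0.17 for Keap1 to 0.78 for Slc7a11, and Slc7a11 ran from -0.28 to 1.42 over the left-out libraries.

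For IRI against sham in iGKO, 2 of the 10 genes, Hmox1 and Slc7a11, had an unadjusted p under 0.05, where 6.37% of all genes did; DESeq2 called 0 of the 10 and 43 of all genes. Hmox1 and Slc7a11 were also the genes whose iGKO IRI libraries lay wholly above the iGKO sham libraries. The share of all genes with such separate ranges was not counted, here or elsewhere in the report. The other 8 had log2 values from -0.78 for Nqo1 to 0.03 for Keap1, with a median of -0.13 over all 10 and -0.02 over all genes tested. The 2 comparisons of IRI with sham share no library.

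The genotype by operation interaction tests the difference itself, the response in iGKO minus that in fl/fl. Its values were -2.39 ± 1.02 for Slc7a11, -2.28 ± 0.61 for Srxn1, -1.83 ± 0.55 for Hmox1, -1.51 ± 0.58 for Gclc and -1.30 ± 0.39 for Txnrd1. None of the 10 passed (0% of all genes did), with adjusted p of 0.404, 0.262, 0.271, 0.363 and 0.273 for these 5 in edgeR. These 5 had an unadjusted p under 0.05, where 11.3% of all genes did; DESeq2 called 1 of the 10, Srxn1 (adjusted p = 0.0332), and 113 of all genes. Without fl/fl IRI 1, Srxn1 (-2.60, adjusted p = 0.00671), Hmox1 (-2.13, 0.0120) and Txnrd1 (-1.48, 0.0320) passed in edgeR. That library had the lowest level of each of these genes in its group, so leaving it out raises the fl/fl IRI mean. Over all single left-out libraries the adjusted p of each ran up to 0.522. The interaction and the comparison of iGKO with fl/fl after IRI share all the IRI libraries and are not separate evidence.

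Markers of injury and of white cells are set beside these levels. The summed level of the 4 injury markers was 90.9 to 167 CPM in iGKO IRI, against 171 CPM in fl/fl IRI 1 and 1691 to 2620 CPM in fl/fl IRI 2 to 4, and 25.8 to 185 CPM in iGKO sham, against 12.3 to 46.6 CPM in fl/fl sham. All 4 rose in fl/fl after IRI and 3 were lower in iGKO IRI than in fl/fl IRI. Havcr1, which encodes KIM-1, a surface protein of injured proximal tubule cells, stood at 84.0, 104, 28.0 and 122 CPM in iGKO IRI, against 101, 1325, 1666 and 710 CPM in fl/fl IRI. The library with the weakest injury markers in fl/fl IRI was thus the one with the lowest Hmox1, Slc7a11, Gclc, Txnrd1, Srxn1, Nqo1 and Nfe2l2 of its group.

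Neutrophil markers summed to 10.8 to 34.7 CPM in iGKO IRI, against 24.7 to 209 CPM in fl/fl IRI, and to 2.22 to 18.8 CPM in iGKO sham, against 4.799 to 11.7 CPM in fl/fl sham, and 6 of 6 rose in fl/fl after IRI. Their sums in fl/fl IRI 1 to 4 were 24.7, 111, 209 and 31.9 CPM. Library fl/fl IRI 1 was lowest of its group in this sum and in Slc7a11, Gclc, Txnrd1 and Srxn1. Library fl/fl IRI 4 was highest in those genes and second lowest in this sum. Macrophage and monocyte markers, which matter here because macrophages make Hmox1, summed to 185 to 359 CPM in iGKO IRI, against 179 to 360 CPM in fl/fl IRI, and to 109 to 154 CPM in iGKO sham, against 105 to 163 CPM in fl/fl sham. In fl/fl IRI 1 to 4 they summed to 360, 179, 183 and 347 CPM, beside Hmox1 at 87.4, 510, 186 and 321 CPM. Of these 9 markers, 1 rose in fl/fl after IRI. Between genotypes after IRI, 1 was lower in iGKO and 0 were higher, with a median log2 fold change of 0.48 over the 9. Red cell markers, a source of haem, showed 0 of 5 calls in these comparisons. Proximal tubule markers summed to 11387 to 14815 CPM in iGKO IRI, against 3392 to 13889 CPM in fl/fl IRI, and to 16194 to 18857 CPM in iGKO sham, against 17509 to 19225 CPM in fl/fl sham, and 5 of 8 fell in fl/fl after IRI. No marker of these lists was at 0 in a whole group, and the part of injury or of white cells in the levels of the 10 genes was not tested.

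**Figure D3:**
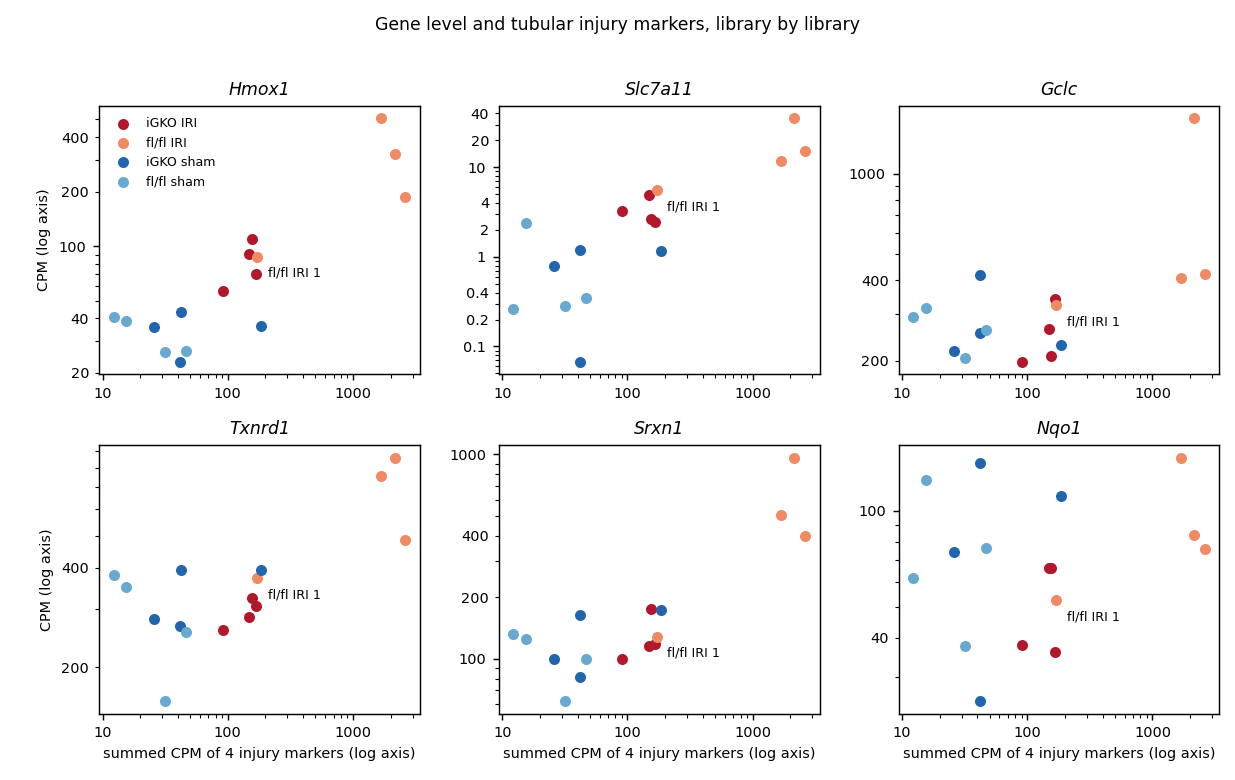
CPM of 6 of the genes (vertical log axis) against the summed CPM of Havcr1, Lcn2, Krt20 and Sox9 (horizontal log axis), with 1 point per library in the 4 groups. Library fl/fl IRI 1, at 171 CPM of injury markers, lies beside the iGKO IRI libraries and apart from fl/fl IRI 2 to 4 in Hmox1, Txnrd1 and Srxn1.

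Levels of different genes compare only when scaled to length, here as mean CPM per kilobase of exon. In fl/fl sham the order was Gclc at 71.2, Gclm at 49.9, Nqo1 at 48.4, Txnrd1 at 40.4, Srxn1 at 37.1, Osgin1 at 26.7, Nfe2l2 at 23.0, Hmox1 at 18.8, Keap1 at 10.8 and Slc7a11 at 0.0585. Cortex of sham-operated fl/fl mice thus held much Gclc and very little Slc7a11 RNA. In fl/fl IRI, Srxn1 at 177 and Hmox1 at 158 stood near Gclc at 184, while Slc7a11 reached 1.23. This Gclc mean leaned on fl/fl IRI 4, at 1615 CPM against 322 to 424 CPM in fl/fl IRI 1 to 3. In iGKO IRI, Gclc was at 67.2, Hmox1 at 46.6, Srxn1 at 45.1, Gclm at 43.6, Txnrd1 at 41.4 and Slc7a11 at 0.238. Of the neighbours in the order of the 4 groups by mean, separate ranges were found between iGKO IRI and iGKO sham for Hmox1 and, for Slc7a11, between fl/fl IRI and iGKO IRI and between iGKO IRI and fl/fl sham; all other neighbours overlapped.

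Around the 10 genes, 9 lists of the same pathways held 85 further genes, of which 81 were tested. In fl/fl kidneys 19 rose and 7 fell after IRI, where 8.46% of all genes rose and 7.01% fell; in iGKO kidneys none passed (0% of all genes). Over single left-out libraries the count in fl/fl ran from 13 to 22 higher and from 4 to 15 lower. There were 22 higher and 15 lower without fl/fl IRI 1, 19 and 4 without fl/fl IRI 3, and 13 and 4 without fl/fl sham 3 or 4; with the groups compared fitted alone there were 12 and 6. After IRI, 4 were lower in iGKO than in fl/fl and none was higher, where 0.673% of all genes were lower and 0.178% were higher. The 4 were Chac1, Akr1b8, Maff and Taldo1.

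Of 10 genes of haem breakdown and iron handling, 2 rose in fl/fl after IRI. Blvrb, for biliverdin reductase B, rose by 1.14 ± 0.27 (edgeR, adjusted p = 0.0118). Blvra, for biliverdin reductase A, gave 0.31 ± 0.15 (edgeR, adjusted p = 0.155) and did not pass. Fth1, the ferritin heavy chain that stores iron, rose by 0.79 ± 0.23 (0.0316), a call lost without fl/fl IRI 2 (0.0978) or 4 (0.0736) or fl/fl sham 1 (0.0712), 3 (0.1003) or 4 (0.0915). The haem transporter gene Slc48a1 gave 0.40 ± 0.16 (0.111). The list's median was 0.26 in fl/fl and -0.02 in iGKO, against 0.01 and -0.02 over all genes, and none of the 10 passed in iGKO or between genotypes.

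Of 8 genes of cystine and cysteine supply, 3 fell and none rose in fl/fl after IRI: Cth, for cystathionine gamma-lyase, which makes cysteine, fell by 1.06 ± 0.20 (edgeR, adjusted p = 0.00316), Slc3a1 by 0.98 ± 0.20 (0.00611) and Slc7a9 by 0.80 ± 0.24 (0.0321). Slc3a1 and Slc7a9 encode the transporter that recovers cystine from the urine in the proximal tubule, whose markers fell with them. The Slc7a9 call was lost without fl/fl IRI 3 (0.0904) or 4 (0.0818) or fl/fl sham 3 (0.0965) or 4 (0.0781). Slc3a2, which encodes the heavy chain of the antiporter that Slc7a11 belongs to, gave 0.43 ± 0.20 (0.151) and did not pass. The median was -0.89 in fl/fl and -0.21 in iGKO.

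Glutathione synthesis and turnover held 1 gene that rose and 3 that fell in fl/fl after IRI among 10 tested of 11. Chac1, which degrades glutathione in the cytosol and is an ATF4 target, was at 0.939 ± 0.405 CPM in iGKO IRI, 10.1 ± 10.6 CPM in fl/fl IRI and 0.624 ± 0.144 CPM in fl/fl sham (SD, n = 4 each). It rose by 4.00 ± 0.71 in fl/fl after IRI (edgeR, adjusted p = 0.00245) and was lower in iGKO than in fl/fl after IRI by -3.40 ± 0.67 (0.0392). Ggct, for an enzyme of glutathione breakdown, fell by 0.99 ± 0.23 (0.00964), and Chac2 by 1.00 ± 0.28 (0.0254), a call lost without fl/fl IRI 2 (0.0523), 3 (0.0770) or 4 (0.0712) or fl/fl sham 1 (0.0616), 3 (0.0599) or 4 (0.0566). Ggt1, for gamma-glutamyltransferase, which starts the breakdown of extracellular glutathione, fell by 0.64 ± 0.21 (0.0456). That call was lost without any 1 of 13 libraries, with adjusted p up to 0.124, with no filter (0.0712), with a replicate block (0.0568) and with the groups alone (0.0842). The list had 1 gene that fell without fl/fl IRI 2, 3 or 4 or fl/fl sham 1, 3 or 4, and 6 without fl/fl IRI 1. Of 10 glutathione transferases tested of 12, Gsta1 rose by 3.33 ± 0.59 (0.00250) and Gstm2 fell by 1.10 ± 0.20 (0.00316); close paralogs in this family can share reads, so single members are uncertain.

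NADPH feeds both glutathione and thioredoxin reduction, and 3 of 6 genes of its supply rose in fl/fl after IRI. They belong to the pentose phosphate pathway: Pgd rose by 1.29 ± 0.23 (edgeR, adjusted p = 0.00233), Taldo1 by 1.08 ± 0.20 (0.00280) and G6pdx by 0.71 ± 0.21 (0.0309). The G6pdx call was lost without fl/fl IRI 2 (0.0759), 3 (0.0751) or 4 (0.0816) or fl/fl sham 2 (0.0794), 3 (0.0663) or 4 (0.0882). Taldo1 was at 126 ± 13.1 CPM in iGKO IRI and 254 ± 79.1 CPM in fl/fl IRI (SD, n = 4 each) and was lower in iGKO IRI by -1.02 ± 0.20 (0.0392). Of 6 thioredoxin and peroxiredoxin genes, thioredoxin itself, Txn1, rose by 0.68 ± 0.16 in fl/fl (0.00975) and the other 5 did not pass.

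Of 12 genes of quinone and carbonyl detoxification and export, 3 rose in fl/fl after IRI. Akr1b8, an aldo-keto reductase gene, stood at 6.72 ± 1.199 CPM in iGKO IRI, 45.1 ± 29.2 CPM in fl/fl IRI and 2.54 ± 1.31 CPM in fl/fl sham (SD, n = 4 each); it rose by 4.16 ± 0.59 in fl/fl (edgeR, adjusted p = 0.000871) and was lower in iGKO IRI than in fl/fl IRI by -2.75 ± 0.55 (0.0392). Abcc3, for an export pump of conjugates, was higher after IRI in fl/fl by 1.19 ± 0.25 (0.00626). In iGKO it had the smallest p of all 81 genes, at 17.5 ± 5.98 CPM in iGKO IRI and 5.98 ± 0.731 CPM in iGKO sham, a difference of 1.55 ± 0.25 with an adjusted p of 0.205. Ugdh, which makes UDP-glucuronate for conjugation, rose by 1.03 ± 0.27 in fl/fl (0.0191), a call lost without fl/fl IRI 4 (0.0674) or fl/fl sham 2 (0.0553), 3 (0.0638) or 4 (0.0567).

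Among 12 partners and turnover factors of NRF2, Maff and Sqstm1 rose in fl/fl after IRI. Maff, one of the small MAF partners, was at 7.97 ± 3.12 CPM in iGKO IRI, 36.1 ± 25.6 CPM in fl/fl IRI and 3.12 ± 1.17 CPM in fl/fl sham (SD, n = 4 each); it rose by 3.53 ± 0.48 in fl/fl (edgeR, adjusted p = 0.000720) and was lower in iGKO IRI than in fl/fl IRI by -2.18 ± 0.45 (0.0398). Sqstm1, for p62, which can draw KEAP1 into autophagy, rose by 0.94 ± 0.24 (0.0177), a call lost without fl/fl IRI 4 (0.0619) or fl/fl sham 3 (0.0617) or 4 (0.0586). The repressor Bach1 and the ligase gene Cul3 were among the 10 that did not pass. Each of the 4 genotype calls after IRI was lost without 10 or 11 of the 16 libraries, with adjusted p up to 0.136; for all 4 these included iGKO IRI 1, 2 and 3, fl/fl IRI 3 and 4, iGKO sham 1 and fl/fl sham 1, 3 and 4. The 4 calls were also lost with a replicate block and with the groups alone, and held without fl/fl IRI 1.

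Slc7a11 is also a target of ATF4, whose list held 8 tested genes, Atf4 itself among them. In fl/fl after IRI 7 of the 8 rose and none fell, where 8.46% of all genes rose and 7.01% fell. Atf4 rose by 1.32 ± 0.32 (edgeR, adjusted p = 0.0129), and Chac1 is counted in the glutathione list too. Atf3, a transcription factor gene, rose by 3.29 ± 0.43 (edgeR, adjusted p = 0.000583) and Asns, for asparagine synthetase, by 2.49 ± 0.38 (0.00119). The median was 1.90 in fl/fl and 0.50 in iGKO, against 0.01 and -0.02 over all genes. In iGKO kidneys Atf3 stood at 7.03 ± 3.21 CPM in iGKO IRI and 2.44 ± 0.659 CPM in iGKO sham, a difference of 1.53 ± 0.41 with an adjusted p of 0.497, and Asns gave 1.15 ± 0.38 (0.629). Between genotypes after IRI, Chac1 was the 1 of the 8 that passed and all 8 log2 values were below 0, with a median of -1.16.

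**Figure D4:**
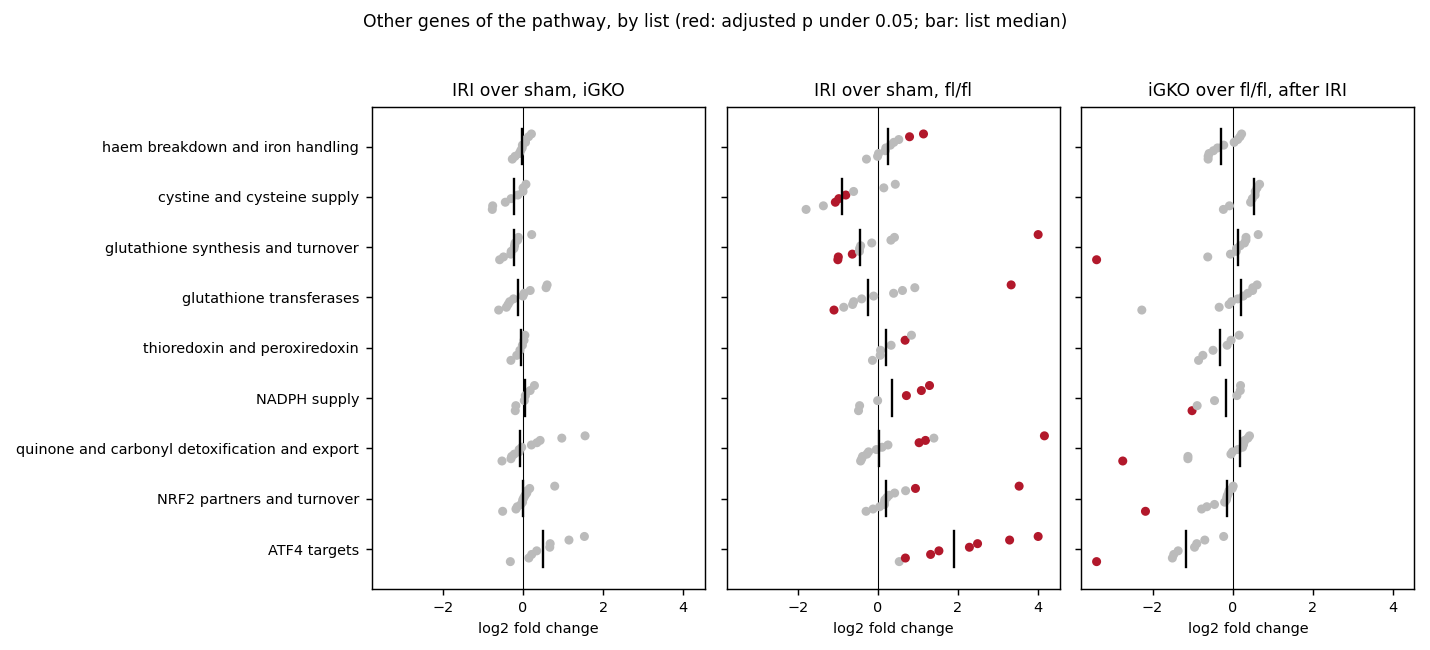
Log2 fold changes of the 81 tested genes of the 9 lists (horizontal axis, shared scale; Chac1 stands in 2 lists) for IRI over sham in iGKO, IRI over sham in fl/fl and iGKO over fl/fl after IRI; red points have an adjusted p under 0.05 and bars are list medians. No point is red in iGKO, 19 higher and 7 lower genes are red in fl/fl, and 4 lower genes are red between genotypes.

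To see which genes vary with each of the 10 from mouse to mouse, levels on the log2 scale were centred on their group means and correlated over the 16 libraries among 13295 genes. These are descriptions with no test; the libraries share depth and composition, and the 3 highest of so many values are high by selection. Txnrd1 had Etv5 (Pearson r = 0.91), Pgd (0.89) and Srxn1 (0.89), and Hmox1 had Mpp1 (0.91), Slc48a1 (0.88) and Acat3 (0.87). So a pentose phosphate gene and Srxn1 ranked beside Txnrd1, and a haem transporter gene beside Hmox1. Srxn1 had Cpeb1 (0.96), Mapk1ip1l (0.95) and Scg5 (0.94), Gclc had Ranbp9 (0.95), H3f3b (0.93) and Abcf2 (0.93), and Slc7a11 had Ube2d1 (0.91), Ube2q2 (0.89) and Mtmr2 (0.89). For Nfe2l2 they were Rmdn2 (0.96), Prr14l (0.95) and Ube2f (0.95), and for Keap1 Dgkd (0.96), Lrrc47 (0.94) and Tcea2 (0.94). Gclm, Nqo1 and Osgin1 were headed by Prmt3 (0.87), Ccdc58 (0.93) and Nacc2 (0.91). With Nfe2l2, r was 0.80 for Nqo1, 0.76 for Srxn1, 0.74 for Hmox1, 0.69 for Slc7a11, 0.58 for Txnrd1 and 0.0028 for Gclc. It was 0.185 for Gclm, -0.11 for Osgin1 and -0.58 for Keap1. Without fl/fl IRI 1 these were 0.80 for Nqo1, 0.63 for Srxn1, 0.59 for Hmox1, 0.61 for Slc7a11, 0.42 for Txnrd1 and -0.30 for Gclc. Gclm, Osgin1 and Keap1 then gave 0.11, 0.0318 and -0.55. Without iGKO sham 4 they were 0.69 for Nqo1, 0.76 for Srxn1, 0.73 for Hmox1, 0.53 for Slc7a11, 0.56 for Txnrd1 and 0.25 for Gclc. Here Gclm, Osgin1 and Keap1 gave -0.094, 0.0556 and -0.42.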

How the data were processed

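The deposited values were counts, whole numbers of reads per gene that the authors had not normalized, for 56980 Ensembl identifiers in 16 libraries. Per the labels' protocols, total RNA was depleted of ribosomal RNA for stranded libraries. The submitters' processing notes name STAR 2.7.9a, cutadapt 1.16, DESeq2 1.36.0, featureCounts 1.6.3, Picard, FastQC, MultiQC and build GRCm39; the role of each, the annotation release and the strand setting are not given in the sources used here. Symbols (52073 identifiers) and exon lengths came from a GENCODE annotation of the earlier build GRCm38, so gene coordinates are not given; promoter windows are RefSeq on GRCm38.p6.

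The test was edgeR 4.0.16 (R 4.3.3) on the counts: filterByExpr by group, TMM scaling, 1 coefficient per group, all 16 libraries in 1 quasi-likelihood fit, and 5 two-sided contrasts. The spread is pooled over the 4 groups, so libraries outside a comparison affect its p-values. The SE is the size of the log2 fold change divided by the root of F. The script was tested on simulated counts. Permutation tests used scipy 1.17.1. Alternatives were DESeq2 1.42.0, RLE scaling, no filter, the compared groups alone, a replicate block, each library left out in turn, and fl/fl IRI 1 and iGKO sham 4 both left out. A replicate is 1 sample of the labels, and p-values measure the spread between samples. No pair of libraries of the same group agreed within sampling noise, and pairs from different groups were not checked for this.

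The 10 genes and the lists were chosen with earlier results of these data known. Named genes were the 10, Degs1, Havcr1 and Lcn2, the 3 genes of each list with the smallest p in a comparison, and the 3 genes most correlated with each of the 10. Krt20 and Sox9 are named as parts of a marker list. Atf4, Bach1, Blvra, Cul3, Slc3a2 and Ggt1 are named after their values were seen. Ddit3 matched 2 identifiers and was not used.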

Additional observations from a re-analysis of the deposited data

Results flagged for a closer look

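In 40 looks, each at 1 of the 10 genes in 1 of the 4 groups, 2 libraries lay farther from the rest of their group than Dixon's 95% limit for 4 samples allows; chance alone flags about 1 group in 20. Gclc stood at 1615 CPM in fl/fl IRI 4, against 322 to 424 CPM in fl/fl IRI 1 to 3. Slc7a11 stood at 2.37 CPM in fl/fl sham 1, against 0.259 to 0.349 CPM in the other fl/fl sham libraries, on 30 reads against 4 to 5. The report gives both fl/fl differences without these libraries.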

How the results depend on the processing

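The calls of iGKO against fl/fl after IRI depended most on the processing. Of the 10 genes, 2 passed in the edgeR fit reported, 0 with RLE scaling, 0 with the replicate block, 0 with the groups compared fitted alone, 4 without a filter, 5 in DESeq2 and 6 with fl/fl IRI 1 and iGKO sham 4 both left out; over single left-out libraries the count ran from 0 to 5. Of all genes, 153 passed, against 352 without a filter, 0 with the block, 0 with the groups alone, 3816 with both libraries out and 948 in DESeq2, and 0 to 2495 over single left-out libraries, with the highest count without fl/fl IRI 1. For IRI against sham in fl/fl, 5 of the 10 passed, 3 with the groups alone and 4 to 5 over left-out libraries; 2779 of all genes passed, 1526 with the groups alone, 5508 with both libraries out, and 1452 (without fl/fl sham 3) to 4335 (without fl/fl IRI 1) over left-out libraries. For IRI against sham in iGKO, 0 of all genes passed, 4 without a filter, 43 in DESeq2 and 0 to 1 over left-out libraries. For the interaction, 0 of the 10 passed, 4 with both libraries out, 1 in DESeq2 and 0 to 3 over left-out libraries; of all genes 0 passed, 15 without a filter, 1 with the block, 1489 with both libraries out, 113 in DESeq2 and 0 to 776 over left-out libraries. For iGKO against fl/fl after sham, 0 passed in each of these fits. The causes of these moves were not tested.

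Whether the replicate numbers pair the libraries was not settled, since no chance level was computed for the check made. Over 24 pairs with the same number the correlation of deviations ran from -0.41 to 0.44, and 7 pairs exceeded 0.1. Of 16 libraries, 7 were closest to their own number.

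Signs turned for small differences that never passed. With both libraries left out, IRI against sham in iGKO gave 0.13 for Gclc and 0.0367 for Osgin1, iGKO against fl/fl after sham gave -0.20 for Gclc, 0.0869 for Gclm and 0.13 for Nfe2l2, and the interaction gave 0.0932 for Keap1. After sham the block gave -0.0378 for Gclc and DESeq2 gave -0.000350 for Slc7a11. Over left-out libraries Nqo1 ran from -0.0858 to 0.62 for IRI against sham in fl/fl; in iGKO, Gclc ran from -0.33 to 0.13, Srxn1 from -0.22 to 0.14, Osgin1 from -0.29 to 0.0364, Nfe2l2 from -0.35 to 0.0161 and Keap1 from -0.0519 to 0.18. For iGKO against fl/fl after sham, Hmox1 ran from -0.0524 to 0.22, Slc7a11 from -0.28 to 1.42, Gclc from -0.20 to 0.16, Gclm from -0.13 to 0.0865, Nqo1 from -0.0921 to 0.59, Osgin1 from -0.33 to 0.16 and Nfe2l2 from -0.19 to 0.13. After IRI Osgin1 ran from -0.12 to 0.25 and Keap1 from -0.0286 to 0.13, and in the interaction Osgin1 ran from -0.0908 to 0.40 and Keap1 from -0.22 to 0.0381. Of 1090 recomputed differences, 985 kept their direction and side of the threshold, 41 lost a call, 20 gained one and 44 turned sign. Slc7a11 rested on 1 to 19 reads a library in iGKO sham and 4 to 30 in fl/fl sham.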
